A study of Homo sapiens with 8 samples.

Results

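The genes described here encode chromatin remodellers, histone demethylases, histone deacetylases and their close relatives. They were chosen by name alone: every probe of the deposited value table whose gene symbol starts with SMARC, ARID, HDAC, KDM or SETD, or with SIRT, CHD or BRD and a number, with 1 ARID gene left out. The rule took 86 of the 16065 probes of that table, for 65 genes, of which 64 are protein-coding and 1, BRD7P3, is a pseudogene of BRD7. SMARC genes were divided into ATPases (8 probes, 5 genes) and core subunits (9 probes, 6 genes). The other classes were ARID (7 probes, 5 genes), CHD (11, 8), BRD (8, 6), HDAC (12, 8), SIRT (8, 6), KDM (11, 10) and SETD (11, 10), and the SETD prefix also takes SETDB1 and SETDB2. On the whole array 130 probes for 81 genes met the name rule, and 44 of them were outside the table, so 16 genes, among them ARID4A, ARID4B, CHD1, HDAC9, KDM5B and KDM6B, had no probe there.

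The RNA came from KM-H2, a human Hodgkin lymphoma cell line with high endogenous miR-155. The cells were stably transduced with a retroviral vector carrying GFP and sorted for it. The vector was either empty (EV) or expressed a sponge (miR-155-sp), a transcript with repeated binding sites that captures miR-155. For both populations, total RNA (T) and RNA immunoprecipitated with an antibody against Argonaute 2 (IP) were hybridized to 2-color Agilent arrays. The EV and sponge populations thus share the cell line, the vector backbone and the antibody. Each of the 4 groups was 1 RNA sample, labelled once with Cy3 and once with Cy5, and these technical labellings carry the replicate numbers 1 and 2 in the labels. With 1 sample per group there was nothing to test across samples, and no difference below has a check by an independent culture. Many ratios are therefore followed in parentheses by their values from the arrays with Cy5-labelled IP and from those with Cy3-labelled IP, in this order. The other ratios are given as means of both orientations alone, which can hide a disagreement.

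Argonaute 2 is the protein that holds a miRNA and pairs its seed, bases 2 to 8, with sites in mRNAs. An mRNA occupied by any miRNA can be enriched in the IP, so the IP/T ratio reflects all miRNAs of the cell, and a probe with IP/T ≥ 2 was called enriched and one with IP/T ≤ 0.5 depleted. A loss of IP/T in sponge cells is what the experiment was designed to detect for mRNAs bound by miR-155. The sequence below is shown because its seed defines the sites by which the sponge captures the miRNA, with the seed in capitals. It is the mature miR-155-5p of RefSeq, encoded on the plus strand at chr21:25573983-25574006 (GRCh38.p14).

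hsa-miR-155-5p: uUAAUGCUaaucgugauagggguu

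Chromatin regulators fall into a few biochemical types. Remodellers of the SWI/SNF, ISWI and CHD families use ATP to slide or evict nucleosomes. Deacetylases of the HDAC and SIRT families remove acetyl groups, and bromodomain (BRD) proteins read them. KDM enzymes remove methyl groups from lysines, most SETD enzymes add them, and ARID proteins bind DNA and often belong to SWI/SNF. Several of these genes are recurrently mutated in B-cell lymphomas.

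In the Cy3 channels 58.9% to 61.9% of gene spots had signals well above background, as flagged by the scanner software, against 38.8% to 43.4% in the Cy5 channels. Saturated gene spots numbered 0. All 6 markers of Hodgkin cells (such as TNFRSF8 and CCL17) were well above background in every labelling of total RNA, at log2 signals of 9.70 to 11.8. Of 5 B-cell markers CD79A alone was so, and CD79B and PAX5 were among those that were so in none. Of 4 markers of other blood cells none was well above background in all total labellings, and their total signals ranged from 3.66 to 7.32. CD14 was so in 3 of the 4 labellings, 1 CD3E probe in 2, CD3D in 1 and HBB in none. Of the 86 probes 77 had this flag in all 8 channels and are called bright below, and 9 had it in 4 to 7 channels. A probe of the second kind can have entered the table through the fraction in which its signal is high, so counts are also given for the bright probes. The RNA is bulk RNA, in which fewer cells with a transcript and less transcript per cell cannot be told apart.

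Of the 86 probes 15 (17.4%), for 13 genes, were enriched in the IP of EV cells, beside 15.1% of all 16060 table probes with a value. In miR-155-sp cells the count was again 15 (17.4%), beside 16.0% of all table probes. These were the same 15 probes in both populations. Over the whole table, 92.4% of the 2432 probes past this ratio in EV cells were past it with the sponge too. The 13 genes were SMARCAD1, SMARCA2, ARID2, ARID3A, ARID5B, CHD9, HDAC4, SIRT3, KDM2A, KDM2B, KDM6A, KDM7A and SETD7, with 2 probes each for ARID5B and HDAC4. Chromatin regulators as a whole were thus enriched about as often as the other probes of the table, and BRD and the SMARC core were the classes with no enriched probe. Of the 15 probes 9 were bright, out of 77 bright probes, and 1702 of the 13435 bright probes of the whole table were enriched. In EV cells 9 of the 86 probes reached a ratio of 2 in both orientations, beside 12.9% of all table probes, and in sponge cells 11 did, beside 13.4%.

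At the other end, 10 probes (11.6%) were depleted in EV cells, beside 12.9% of all table probes. In sponge cells there were 7 (8.14%), beside 13.9%. The genes on both lists were BRD7P3, CHD1L, HDAC5 and SMARCAL1. The 86 probes had a median log2 IP/T of -0.25 (EV) and -0.21 (sponge). For all table probes the medians were -0.25 and -0.26. Background handling had a large effect on these counts. With normexp background correction and quantile normalization, 5 of the 15 probes enriched in EV cells stayed at a ratio of 2 or more, those of SMARCAD1, KDM6A, ARID3A, KDM2A and SIRT3, and the share over all table probes was 8.81%. Under the same correction 1 of the 86 probes was depleted in EV cells, beside 3.74% of all table probes. Low spot signal went with high ratios among the 86 probes and, more weakly, over the whole table. Pearson's r of spot signal and log2 IP/T in EV cells was -0.49 over the 86 probes and -0.22 over all table probes. In sponge cells these values were -0.49 and -0.24. The 86 probes were also divided in order of their EV total signal. Of the lowest 29, 11 were enriched, against 3 of the middle 28 and 1 of the highest 29. No share over all table probes is given for these signal groups. The EV total signal is also the denominator of the ratio, spot signals of different probes do not measure relative abundance, and the part of spot signal in the ratios was not tested.

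**Figure D1:**
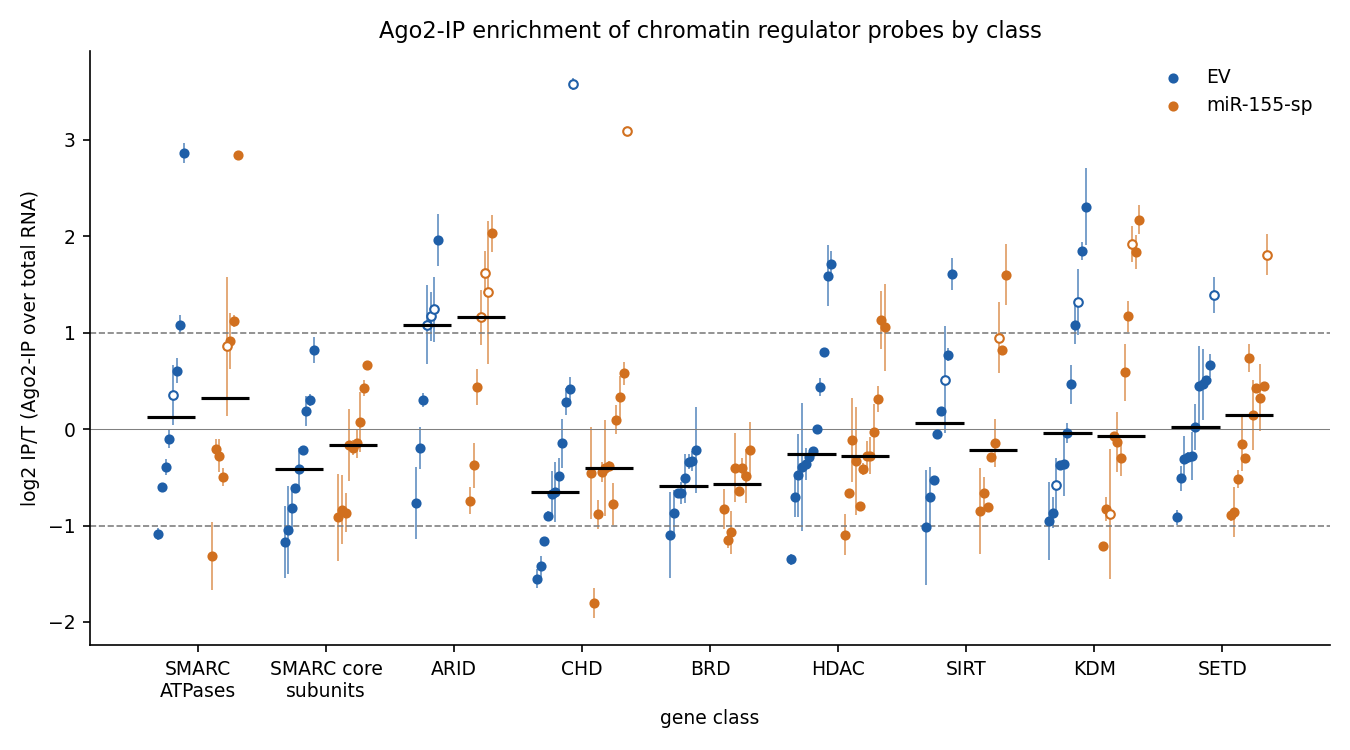
Log2 IP/T (vertical axis) of 85 probes by gene class (horizontal axis) in EV (blue) and miR-155-sp cells (orange). Points are means of both labellings, vertical lines join the dye orientations, black bars are class medians, open points are probes that are not bright, and dashed lines mark ratios of 2 and 0.5. ARID is the class with a median above a ratio of 2, which its 3 open points carry (0.053 over its bright probes in EV cells), and every BRD probe lies below 0.

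Among the SMARC ATPases, SMARCAD1 had the highest ratio of all 77 bright probes. SMARCAD1 is a remodeller that helps to keep silent chromatin silent after replication. Its probe (A_23_P213255) had log2 signals of 8.07 and 8.01 in EV total RNA (Cy3, Cy5) and 10.98 and 10.83 in EV IP. In sponge cells the signals were 8.10 and 8.08 in total RNA and 10.96 and 10.91 in IP. Both IP samples lay far above both total samples, and the mean log2 ratios of the populations differed by less than the orientations of either. The ratio was 7.28 in EV cells (6.76, 7.84) and 7.17 in sponge cells (7.0, 7.35).

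The alternative catalytic subunits of SWI/SNF, SMARCA2 (BRM) and SMARCA4 (BRG1), had different ratios. The probes of SMARCA2 had log2 IP/T of 1.08 (1.18, 0.99) and 0.61 (0.73, 0.48) in EV cells. The 3 probes of SMARCA4 had -0.10, -0.39 and -0.60, and all their values in single orientations were below 0. In sponge cells the SMARCA2 probes were at 1.12 and 0.91 and the SMARCA4 probes between -0.50 and -0.20. The ranges of the paralogs did not overlap in either population. SMARCA5, the ISWI ATPase, had 0.36 (0.05, 0.67) in EV cells, on a probe well above background in 7 channels. SMARCAL1, an annealing helicase at stalled replication forks, was depleted from the IP, at -1.09 (-1.15, -1.03) in EV and -1.32 (-1.67, -0.96) in sponge cells.

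None of the 9 probes for SMARC core subunits was enriched, beside 15.1% (EV) and 16.0% (sponge) of all table probes. The class had median log2 ratios of -0.41 (EV) and -0.16 (sponge). SMARCD1 was the highest (A_23_P204745, 0.82; 0.95, 0.68) and SMARCE1 the lowest (-1.17; -1.54, -0.79) in EV cells. The scaffold paralogs SMARCC1 and SMARCC2 were below 0 on all 4 probes in both populations. For SMARCC1 the EV values were -0.21 and -0.61, and for SMARCC2 they were -0.41 and -1.04.

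ARID genes had the highest class median, 1.08 in EV and 1.16 in sponge cells. Of their 7 probes 4 were enriched, beside 15.1% of all table probes in EV and 16.0% in sponge cells. Over the 4 bright ARID probes alone, a choice made after seeing the data, the medians were 0.053 and 0.032, and 1 of the 4 was enriched. ARID3A, a DNA-binding factor known from immunoglobulin gene regulation in B cells, had the enriched ARID probe that was bright. That probe (A_23_P16516) had log2 signals of 10.25 and 10.14 in EV total RNA and 12.37 and 11.95 in EV IP, and 10.05 and 10.09 in sponge total RNA and 12.31 and 11.89 in sponge IP. The ratio was 3.90 in EV cells (3.24, 4.69) and 4.09 in sponge cells (3.58, 4.67). ARID5B, which works with a histone demethylase, had IP/T of 2.37 (1.87, 2.99) and 2.25 (1.88, 2.68) in EV cells. ARID2, a subunit of the PBAF form of SWI/SNF, had 2.12 (1.60, 2.81). With IP in Cy5 alone none of these probes reached a ratio of 2 in EV cells. The ARID5B and ARID2 probes of the table had signals over background in 6 or 7 channels only. Outside the table, an ARID5B probe in 5 channels (A_23_P97871) had a log2 IP/T of 0.11 in EV and 0.23 in sponge cells. Another in 3 channels (A_24_P944437) had 2.59 and 2.52, with total RNA not well above background in any labelling.

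ARID1A and ARID1B, alternative subunits of the BAF form, were not enriched. ARID1A had log2 IP/T of 0.30 and -0.19 on its probes, and ARID1B had -0.77 (-0.39, -1.14) in EV cells. The class median for ARID kept its sign in all 8 alternative settings and ranged from 0.35 to 1.42 in EV cells. With 7 probes for 5 genes it describes few genes.

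CHD9, a remodeller related to CHD7 and CHD8, was at log2 signals of 3.98 and 4.42 in EV total RNA, where it was not well above background, and at 7.94 and 7.62 in EV IP. In sponge cells the total signals were 3.85 and 4.55 and the IP signals 7.63 and 6.95. Against the dimmest signals called well above background in the total channels, CHD9 (A_24_P942250) was 6.21-fold enriched in EV cells and 4.00-fold in sponge cells. These values are no strict lower bounds, since other probes lacked the flag at higher signals. In Cy5-labelled EV total RNA the dimmest flagged signal was 5.99, and SIRT1 lacked the flag at 7.63. With normexp, under either normalization, the ratio of the CHD9 probe was below 2 in both populations. The CHD9 probe passed the detection filter through its IP channels alone.

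The other CHD probes were mostly low, with a class median of -0.65 in EV and -0.40 in sponge cells. CHD3 and CHD4 are the alternative ATPases of the NuRD deacetylase complex, and both were below 0 in EV cells, at -1.55 (-1.45, -1.65; -0.68 with normexp and quantile normalization) and -0.67 (-0.44, -0.91). CHD1L, a remodeller recruited to DNA damage by poly(ADP-ribose), was at -1.42 (-1.53, -1.31) in EV and -1.80 (-1.96, -1.64) in sponge cells. CHD2 (0.42; 0.54, 0.30) was the highest bright CHD probe.

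All 8 BRD probes had a mean ratio below 1 in both populations. The class median was -0.59 in EV and -0.57 in sponge cells, and it stayed below 0 in all 8 alternative settings (-0.67 to -0.22 in EV). BRD2 and BRD3 are BET proteins, readers of acetylated histones that promote transcription. In EV cells the BRD3 probes had -0.34 and -0.66, and the BRD2 probes had -0.22 and -0.87. BRD7, a subunit of PBAF, was the lowest at -1.09 (-0.65, -1.54). The probe of the pseudogene BRD7P3 was at -1.06 (-1.10, -1.01), and as this pseudogene is a near copy of BRD7, its probe may also have bound BRD7 transcripts.

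HDAC4 alone of the HDAC genes had enriched probes. It is a class IIa deacetylase, which shuttles between nucleus and cytoplasm and acts with MEF2 transcription factors. All 3 of its probes were above 0 in EV cells, with IP/T of 3.27 (3.61, 2.97; A_23_P210048), 3.01 (3.75, 2.42; A_24_P8892) and 1.74 (1.74, 1.75; A_24_P359859). With normexp and quantile normalization their log2 IP/T values were 0.70, 0.92 and 0.39, so that none reached a ratio of 2. A further HDAC4 probe (A_24_P359856), outside the table and well above background in 5 channels, had a log2 IP/T of -0.36 in EV and -0.29 in sponge cells and went against the probes of the table.

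The class I deacetylases HDAC1, HDAC2 and HDAC3, the catalytic subunits of the nuclear corepressor complexes, lay close together and slightly below 0. In EV cells HDAC1 had -0.29 (-0.30, -0.28), HDAC3 -0.23 (-0.25, -0.20) and HDAC2 -0.40, and the orientations of HDAC2 disagreed in sign (-1.06, 0.27). HDAC8, the other class I enzyme, had -0.36. The class IIa relatives of HDAC4 differed from it: HDAC7 had 0.44 and 0.01, and HDAC5 had -0.48 and -1.35 in EV cells. HDAC6, a cytoplasmic tubulin deacetylase, had -0.70.

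Among the sirtuins, the NAD-dependent deacetylases, 1 of 8 probes was enriched, a probe of the mitochondrial SIRT3. The share over all table probes was 15.1% in EV and 16.0% in sponge cells. SIRT1 and SIRT7, both mainly nuclear, had log2 IP/T of 0.51 (-0.04, 1.07; 6 channels well above background) and 0.77 (0.84, 0.70) in EV cells. SIRT2, a mainly cytoplasmic enzyme, was depleted at -1.02, with a wide gap between orientations (-0.42, -1.62).

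KDM genes were divided. Of 11 probes 4 were enriched, beside 15.1% of all table probes in EV and 16.0% in sponge cells. Of the 4 probes 3 were bright, and with normexp and quantile normalization those of KDM2A and KDM6A alone stayed at a ratio of 2 or more. The class median was -0.04 in EV and -0.07 in sponge cells. KDM6A (UTX), which removes H3K27 methylation and is often lost in lymphoid cancers, had log2 signals of 8.57 and 8.06 in EV total RNA and 10.77 and 10.49 in EV IP. In sponge cells they were 8.35 and 8.55 in total RNA and 10.57 and 10.67 in IP. The IP/T of KDM6A (A_23_P217304) was 4.95 in EV cells (3.76, 6.52) and 4.51 in sponge cells (5.02, 4.06), so the orientations changed in opposite directions.

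KDM2A, an H3K36 demethylase that binds CpG islands, had an IP/T of 3.61 (3.85, 3.38) in EV and 3.58 (4.04, 3.17) in sponge cells. KDM7A, a demethylase of repressive marks, had 2.50 (1.97, 3.17) and 3.78 (4.30, 3.33). KDM1A (LSD1), KDM3B and KDM4C were low, at log2 IP/T of -0.86, -0.95 and -0.57 in EV cells. KDM5C, an H3K4 demethylase, had -0.36 (-0.02, -0.69).

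Of the SETD genes, SETD7 was enriched (log2 IP/T of 1.39 in EV and 1.81 in sponge cells, 7 channels well above background). It encodes a lysine methyltransferase with histone and non-histone substrates. SETD5 (0.66), SETDB2 (0.45) and both probes of SETDB1 (0.51, 0.46), which encodes an H3K9 methyltransferase of heterochromatin, were above 0 in EV cells without reaching a ratio of 2. SETD6 was the lowest at -0.92 (-0.84, -1.0).

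**Figure D2:**
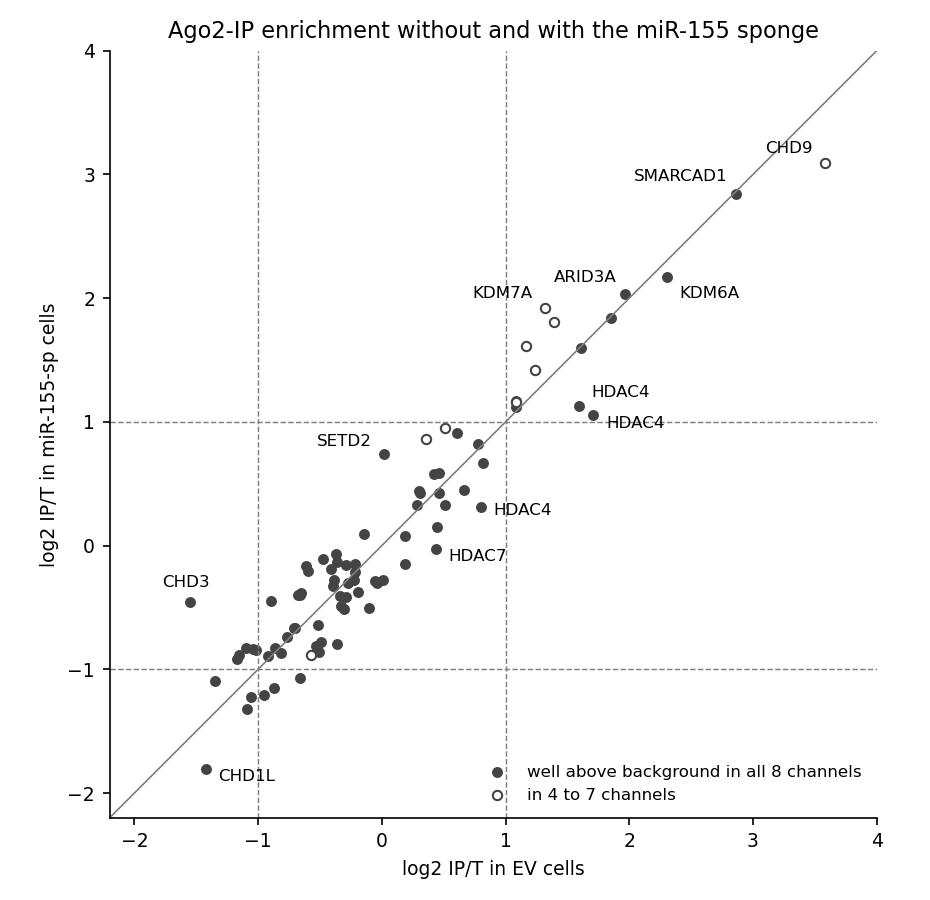
Log2 IP/T of the 86 probes in EV cells (horizontal axis) and in miR-155-sp cells (vertical axis), as means of both labellings. The solid line marks equal ratios, dashed lines mark ratios of 2 and 0.5, and open points are probes that are not bright. The same 15 probes lie beyond a ratio of 2 on both axes, HDAC4 lies under the diagonal on 3 probes and CHD3 lies above it.

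The change with the sponge, as the log2 IP/T of sponge cells minus that of EV cells, had a median of 0.03 over the 86 probes, against -0.0008 over all table probes. IP/T was lower in both orientations for 25 probes (29.1%), beside 30.4% of all table probes, and higher in both for 28 (32.6%), beside 31.1%. One probe (1.16%), of HDAC4, was lower by over 0.5 and in both orientations, beside 3.27% of all table probes. The probes of 4 genes (4.65%), CHD3, SETD2, KDM7A and SMARCA5, were higher by over 0.5 and in both orientations, beside 4.35%. On means of both orientations, no enriched chromatin regulator of the table fell under a ratio of 2 with the sponge. With IP in Cy3 alone, both enriched HDAC4 probes did, from 2.97 to 1.52 and from 2.42 to 1.78. The changes were poorly repeatable between orientations (Pearson's r of 0.32 across the 86 probes, against 0.89 for the EV ratios), and the probes share arrays and labelling reactions.

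**Figure D3:**
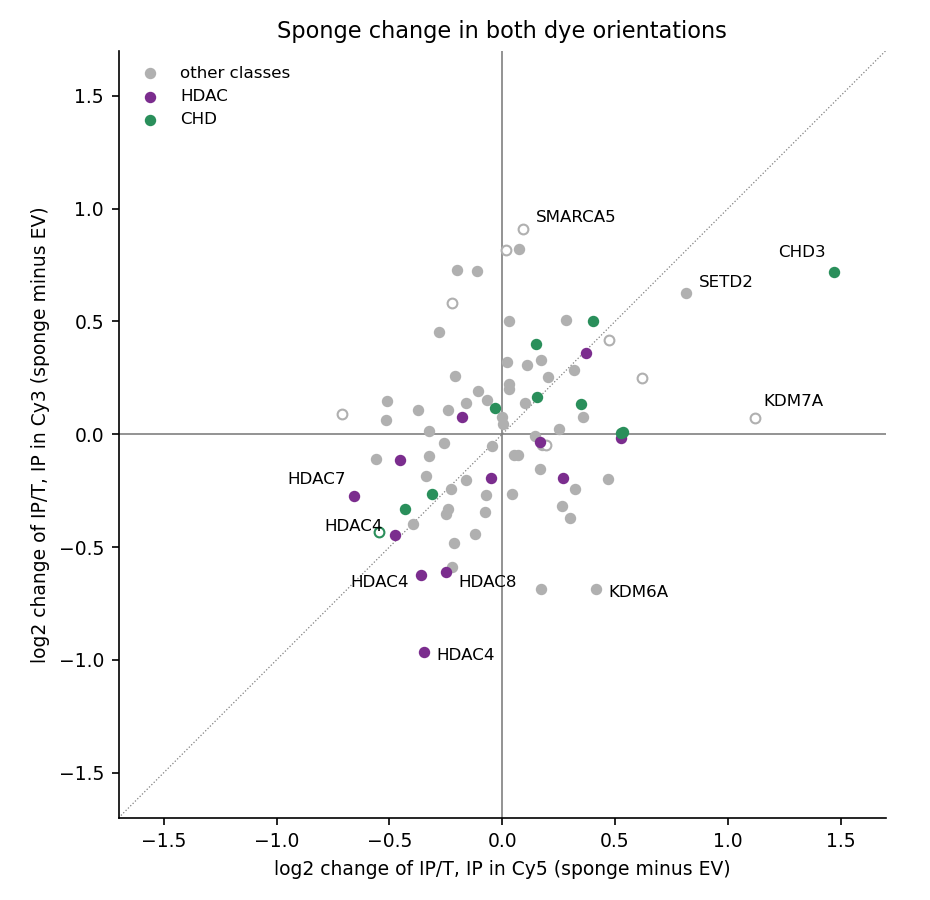
Change of log2 IP/T with the sponge (miR-155-sp minus EV) of the 86 probes with IP in Cy5 (horizontal axis) and with IP in Cy3 (vertical axis). HDAC probes are purple, CHD probes green and others grey, open points are probes that are not bright, and the dotted line marks equal changes. The 3 HDAC4 probes lie in the lower left quadrant and CHD3 and SETD2 in the upper right one.

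HDAC was the class with the lowest median change, -0.20. Of its 12 probes 7 were lower in both orientations and 1 was higher (HDAC5), beside 30.4% and 31.1% of all table probes. Of the 7 probes 3 belonged to HDAC4 and 2 to HDAC7. The median kept its sign in all 8 alternative settings (-0.25 to -0.13). HDAC4 had the largest fall among bright probes whose orientations went the same way. The log2 signals of A_23_P210048 were 6.82 and 6.78 in EV total RNA, 8.34 and 8.67 in EV IP, 7.0 and 7.73 in sponge total RNA, and 8.34 and 8.51 in sponge IP. The IP signals of both populations overlapped, and the sponge total signals lay above both EV total signals. IP/T changed from 3.27 (3.61, 2.97) to 2.08 (2.84, 1.52), a log2 change of -0.66 (-0.35, -0.96). The log2 change in total RNA was 0.57 (0.18 in Cy3, 0.96 in Cy5).

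The other HDAC4 probes of the table moved the same way. The HDAC4 probe outside the table (A_24_P359856, 5 channels) did not fall, with a log2 IP/T of -0.36 in EV and -0.29 in sponge cells. A_24_P8892 changed by -0.46 (-0.48, -0.45) and had 0.29 in total RNA, and A_24_P359859 changed by -0.49 (-0.36, -0.62) and had 0.38 in total RNA. The labellings contributed unequally to these values. From the Cy3 labellings alone the 3 changes were -0.19, -0.17 and 0.06, and from the Cy5 labellings alone they were -1.12, -0.75 and -1.04. The change was thus carried mainly by the Cy5 channels, in which fewer spots were well above background.

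HDAC7 had lower IP/T with the sponge on both probes, by a log2 change of -0.46 (-0.66, -0.27; A_24_P647146) and -0.28 (-0.45, -0.11). HDAC8 had -0.43 (-0.25, -0.61), with 0.39 in total RNA. HDAC1 had -0.12 (-0.05, -0.19). HDAC5, by contrast, had 0.37 (0.37, 0.36) and 0.26 (0.53, -0.02).

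**Figure D4:**
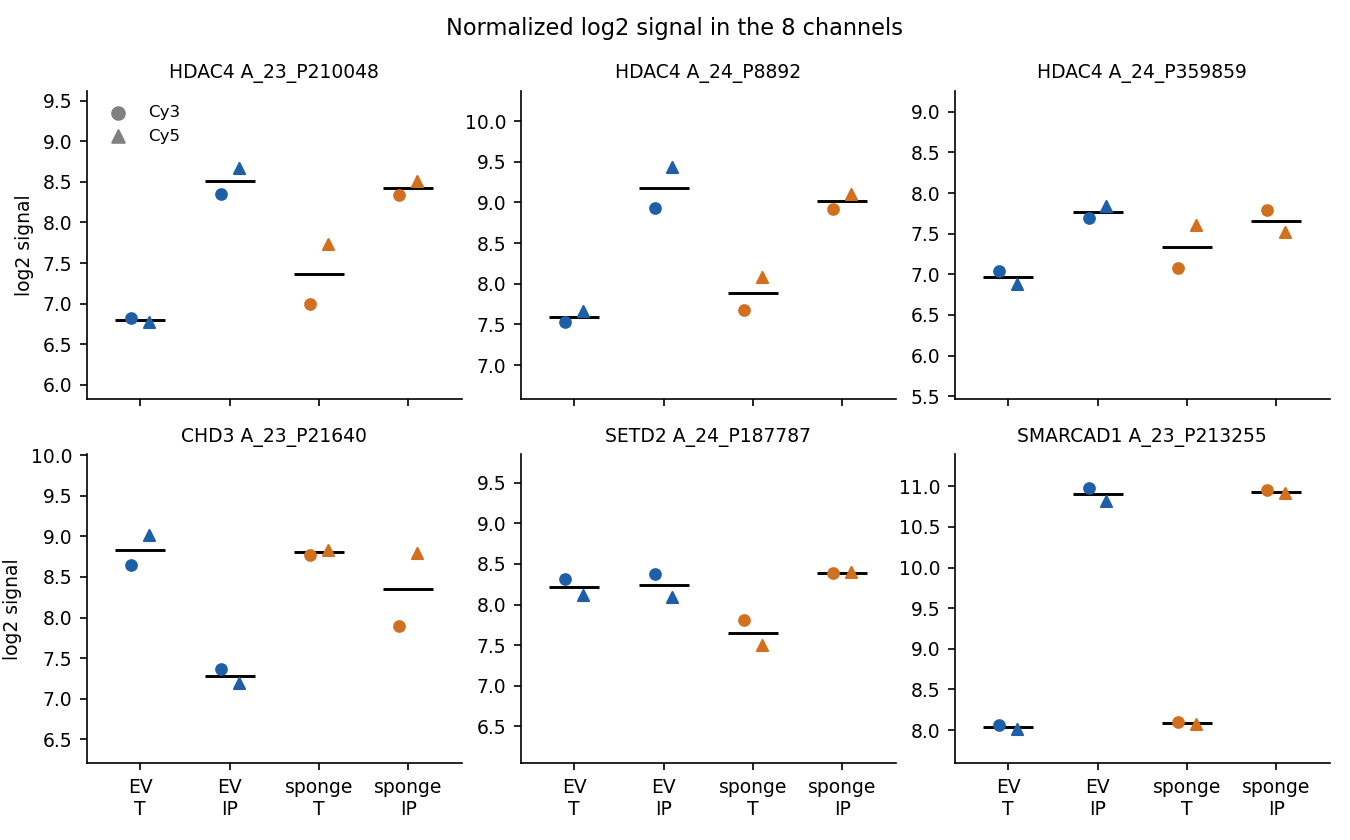
Normalized log2 signal (vertical axis, spanning 3.8 units in each panel) of 6 probes in EV and sponge total (T) and IP RNA (horizontal axis), with Cy3 labellings as circles, Cy5 labellings as triangles and their mean as a bar. The HDAC4 panels differ between populations mainly in total RNA, the CHD3 panel in IP RNA, and SMARCAD1 has nearly equal signals in both populations.

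CHD3 had the largest rise among bright probes. Its log2 signals (A_23_P21640) were 8.65 and 9.02 in EV total RNA, 7.37 and 7.20 in EV IP, 8.78 and 8.83 in sponge total RNA, and 7.90 and 8.79 in sponge IP. Total RNA was at a like level in both populations, and both sponge IP labellings lay above both EV IP labellings. IP/T went from 0.34 to 0.73, a log2 change of 1.1 (1.47, 0.72), with a change in IP RNA of 1.06 (0.53 in Cy3, 1.60 in Cy5) and in total RNA of -0.03. Across the 8 alternative settings the change ranged from 0.38 to 1.79. CHD probes had a median change of 0.24, which ranged from 0.054 to 0.31 across these settings and was lowest with normexp. Of the 11 CHD probes 7 were higher in both orientations and 3 lower, beside 31.1% and 30.4% of all table probes. The CHD probes lower in both were those of CHD1L (-0.38; -0.43, -0.33), CHD9 (-0.49 on measured signals, with total RNA not well above background) and 1 of the 2 probes of CHD8 (-0.29), whose other probe was higher (0.45).

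SETD2, the main H3K36 tri-methylating enzyme, whose gene is mutated in several lymphomas, went from an IP/T of 1.01 (0.858, 1.20) in EV cells to 1.67 (1.51, 1.85) in sponge cells. Its signals (A_24_P187787) were 8.32 and 8.12 in EV total RNA, 8.38 and 8.10 in EV IP, 7.81 and 7.50 in sponge total RNA, and 8.38 and 8.40 in sponge IP. Sponge total RNA lay below the other 3 samples in both labellings. The log2 change of IP/T was 0.72 (0.82, 0.63), and that in total RNA was -0.57 (-0.51, -0.62). With normexp and quantile normalization the change of IP/T was 0.13. On the further SETD2 probes, both outside the table, log2 IP/T was 0.17 and 1.18 in EV and 0.94 and 1.44 in sponge cells.

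KDM7A had a change of 0.60 (1.12, 0.07) and SMARCA5 of 0.50 (0.09, 0.91), with wide gaps between orientations and signals near background (6 and 7 channels). SIRT1 changed by 0.43 (0.62, 0.25), with -0.48 in total RNA. SMARCC1 had 0.45 (0.08, 0.82) and 0.06 (0.18, -0.05), and the SMARCC2 probes had 0.22 and 0.21, higher in every orientation. SMARC core subunits had a median change of 0.12. Of their 9 probes 5 were higher in both orientations and 2 lower, beside 31.1% and 30.4% of all table probes. The SMARCA4 probes disagreed, with -0.40, 0.12 and 0.40.

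In total RNA, 4 of the 86 probes (4.65%) differed by over 0.5 between populations, the same way in both labellings, beside 4.11% of all table probes. HDAC4 (A_23_P210048) was higher with the sponge. SETD2, SETD7 (-0.54; -0.19 in Cy3, -0.90 in Cy5) and ARID5B (A_32_P18440, -0.51; -0.39, -0.63) were lower. The SETD7 and ARID5B values rest on Cy5-labelled sponge total RNA in which neither probe was well above background. IP/T moved opposite to total RNA for all 4, and the ratio holds the total signal in its denominator. The median absolute change in total RNA was 0.12 over the 86 probes and 0.13 over all table probes.

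There were 17 genes with 2 or 3 probes in the table, and all probes of such a gene carried the same transcript identifier. The probes of a gene spread by a median of 0.49 in log2 IP/T in EV cells, and 3 genes spread by over 1. For SIRT3, 1 probe (A_24_P923684) was enriched at 1.61 (1.45, 1.78) in EV and 1.60 (1.29, 1.92) in sponge cells, and the others were at 0.19 (0.16, 0.22) and -0.05 (-0.07, -0.03) in EV cells. The gap between the SIRT3 probes was larger than that between orientations, and all 3 were well above background in all channels. KDM2B, an H3K36 demethylase of a Polycomb complex, had 1.08 (1.28, 0.88) on 1 probe and -0.04 (-0.15, 0.07) on the other. CHD7 had 0.29, -0.65 and -1.16. The call of enrichment for SIRT3 and KDM2B thus holds for 1 probe each. The change with the sponge had the same sign on all probes for 10 of the 17 genes. For 3 genes every probe agreed in both orientations: HDAC4 and HDAC7 lower, SMARCC2 higher.

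**Figure D5:**
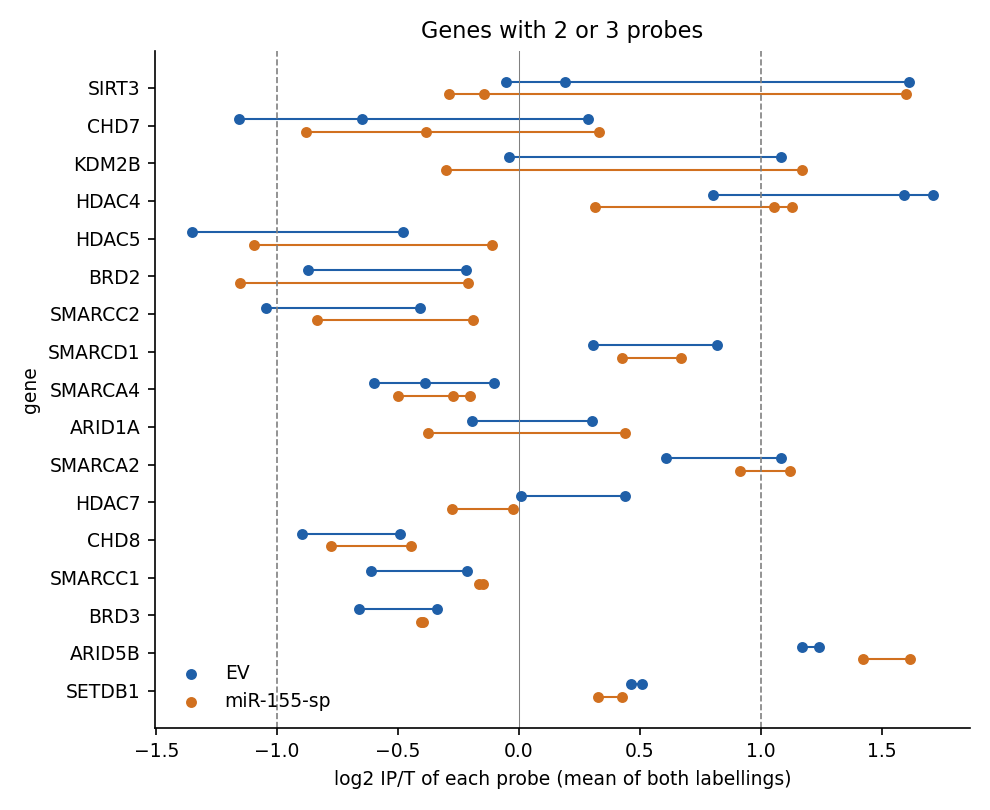
Log2 IP/T (horizontal axis) of each probe of the 17 genes with 2 or 3 probes (vertical axis, ordered by spread in EV cells), in EV (blue) and miR-155-sp cells (orange), with a line from the lowest to the highest probe. Dashed lines mark ratios of 2 and 0.5. SIRT3, CHD7 and KDM2B have the widest spread, and the 3 HDAC4 probes lie to the left of their EV values with the sponge.

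The named families work in complexes with other proteins, and 86 genes of such complexes or of related enzymes, which the name rule does not take, were listed for comparison. Of these, 72 were measured by 102 probes, of which 19 (18.6%) were enriched in EV and 23 (22.5%) in sponge cells, beside 15.1% and 16.0% of all table probes. Among further SWI/SNF subunits 6 of 19 probes were enriched in EV cells, with a median log2 IP/T of 0.71, against -0.41 for the SMARC core. They belonged to BCL11A (2.81 and 2.82), BCL11B (1.32), SS18L1 (1.33) and ACTB (1.28 and 1.05), and BCL11A and BCL11B also act as lymphoid transcription factors. With the sponge 14 of these 19 probes were lower in both orientations and 3 were higher, beside 30.4% and 31.1% of all table probes, with a median change of -0.12. Of the 14 probes 4 belonged to 1 gene, ACTB.

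The counts of the shorter lists that follow stand beside 15.1% of all table probes enriched in EV and 16.0% in sponge cells. None of 8 probes for NuRD partners was enriched in EV cells, and the probes of CHD3, CHD4, HDAC1 and HDAC2 were not either. At that share a list of so few probes can lack an enriched one, so this is no trait of the complex. Of 24 probes for SIN3, CoREST and NCOR partners 6 were enriched, all 4 of TBL1XR1 (1.97 to 3.14) and both of RCOR1 (2.11 and 1.84). TBL1XR1 is a subunit of the NCOR corepressor and RCOR1 the scaffold that joins KDM1A to HDAC1 and HDAC2, whose own probes were below 0. No probe of 16 for ISWI, INO80 and SWR1 partners was enriched in EV cells, and 3 were in sponge cells, both of INO80 (2.27 and 2.41) and 1 of RSF1 (2.17). Of 10 acetyltransferase probes 3 were enriched in EV cells, 2 of KAT2B (2.03 and 1.20) and 1 of HAT1 (1.54). Of 25 probes for other methyltransferases 4 were, 1 each of ASH1L, KMT2B, KMT2C and KMT5C, beside 15.1% of all table probes. The enriched KMT2C probe (1.97) was well above background in 6 channels. The other KMT2C probes, so in all 8, had -1.32, -0.15 and -0.26.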

How the data were processed

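The authors deposited scanner output whose spot intensity values, per the file headers, come from Agilent Feature Extraction 10.7.3.1 (10.5.1.1 in the submitters' processing notes), background-subtracted and dye-normalized. The authors also deposited log2 values, which the study's methods describe as quantile-normalized and filtered on detection and on 2-fold agreement of labellings; per column their medians were 9.71 to 9.72.

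Here, control and outlier spots were left out, spots of a probe averaged, and log2 processed signals of the 8 channels quantile-normalized. The mean log2 signal of T was subtracted from that of IP. Values differed from the deposited log2 values by a median of 0.000557. Quantile normalization makes each ratio relative to the other probes, so it is no absolute amount of bound RNA. The flag for signals well above background was the scanner software's. For a fraction not well above background in either labelling, a ratio is given against the dimmest signals with this flag, which is no strict bound.

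Symbols came from each probe's identifier through a RefSeq table (GRCh38.p14), which named 23958 of 41000 array probes and 11851 table probes (8757 genes). The arrays were designed on an older build, so no coordinates of probes are given. One ARID gene, and single values of some other genes, are not reported here. Members, lists, and the rule for named genes were chosen with earlier results of these data known. The rule named the highest and lowest bright probe of each class, the 5 largest changes of IP/T and the 3 largest of total RNA in each direction with agreeing labellings, probe pairs that differed by over 1, and close paralogs. Any gene outside this rule was named with its values known. Counts past fixed ratios stand in place of tests.

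The values were also computed after centring channels on a common median, after normexp (offset 50) with quantile normalization or with loess and Aquantile, from the deposited values, with stricter and looser probe filters, from single labellings or orientations, and as gene means. Python 3.11.15 (numpy 2.4.6, pandas 2.3.3) and limma 3.58.1 in R 4.3.3 were used, and the code was tested on simulated data.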

Additional observations from a re-analysis of the deposited data

How the results depend on the processing

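The counts of 15 enriched probes and the medians held under the deposited values, and most changed with background correction. With normexp, enriched probes numbered 5 in EV cells with either quantile normalization or loess, and 6 and 5 in sponge cells, while depleted probes numbered 1 and 1 in EV and 1 and 0 in sponge cells. With normexp and loess the share of all table probes enriched in EV cells was 9.34%. Restricting to probes well above background in all 8 channels left 9 enriched probes in each population. With all rule probes in at least 4 channels and no filter on agreement, 29 probes joined the 86. Of this larger set 24 were enriched in EV and 12 depleted in sponge cells. No share over all array probes under this filter is given beside these counts. The median log2 IP/T in EV cells was -0.34 with a common median, -0.15 and -0.018 with normexp (quantile, loess) and -0.13 with IP in Cy3 alone; in sponge cells it was -0.0036 with normexp and loess. The median change with the sponge stayed near 0: 0.094 with a common median (0.061 over all table probes), 0.00927 and -0.0076 with normexp, 0.0061 in probes with all 8 channels, 0.024 without the agreement filter, 0.024 over gene means, 0.010 from arrays with Cy5-labelled IP and 0.013 from the swapped arrays, and -0.055 to 0.072 with 1 labelling left out. The cause of these shifts was not tested. Among class medians and named probes, 81 values moved by at least the SD between orientations and 108 did not with normexp and quantile normalization, and 1 moved with the deposited values. With normexp, loess and Aquantile 104 moved and 85 did not. From the Cy3 labellings alone 58 moved, and from the Cy5 labellings alone 60 did. The setting that takes symbols from scanner identifiers alone equals the main one, since no other source was used. No paired analysis was possible because the replicate numbers mark dye labellings of 1 RNA and no result comes from a test. Probes near background, and 4 arrays, limit all values.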

Other observations

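Some rule probes outside the deposited table had high ratios on dim or discordant spots. ARID4B, a subunit of a SIN3 deacetylase complex, was not well above background in any labelling of total RNA on its 2 probes, and was so in 4 and 3 of the 8 channels in all. Against the same kind of reference as for CHD9, it was 6.38-fold and 4.53-fold enriched in EV and 5.70-fold and 3.54-fold in sponge cells. These too are no strict lower bounds. For the last value, the IP signal was well above background in 1 of the 2 labellings. The probes that follow had total RNA well above background in 1 of the 2 labellings of each population, or in both for KDM6B in EV cells, so their log2 IP/T rests in part on signals near background. A second probe of SETD7 (6 channels) had 2.84 and 2.65, in the same direction as the SETD7 probe of the table. A second probe of CHD9 (5 channels) had 2.36 in EV and 1.44 in sponge cells. SIRT4, a mitochondrial sirtuin with no probe in the table, had 1.45 and 2.00 (6 channels), and KDM6B, the paralog of KDM6A, had 1.03 and 0.75 (6 channels). The labellings of these probes differed by 0.82 to 1.95 on the log2 scale in the sample where they differed most. Further probes outside the table passed a ratio of 2 in EV cells and not with the sponge. Log2 IP/T was 1.61 and 0.09 for BRD10 (5 channels), 1.15 and -0.008 for CHD1 (4 channels) and 1.21 and 0.11 for KDM1B (A_23_P145035, 4 channels). The labellings of the BRD10 probe differed by up to 2.68.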
